A study of Mus musculus with 2 samples.

Results

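The endothelial cells of the mouse esophagus, the stomach and the junction between the organs (GE-SCJ, the gastro-esophageal squamo-columnar junction) were described here from single-cell RNA sequencing (scRNA-seq). The cells were those that carried the deposited label Endothelial, 157 of 7808 cells, in any region and at any stage. The tissue came from wild type C57BL/6 mice on embryonic day 15 (E15), embryonic day 19 (E19), postnatal day 2 (pup) and week 8 (adult). The labels give 6 mice at E15, 2 at E19, 2 at the pup stage and 3 as adults, and name no treatment at any stage. The mice of 1 region and stage were pooled under 1 CellPlex tag, an oligonucleotide that marks the cells of a sample, and all tags were sequenced as 1 library. The tissue was dissociated with collagenase II, and the methods name no sort or gate for endothelium. The 11 pools analysed held 6 prenatal pools (E15 and E19, each with esophagus, GE-SCJ and stomach) and 5 postnatal pools (pup esophagus, GE-SCJ and stomach, adult esophagus and GE-SCJ). Adult stomach was not analysed here. Each region and stage was thus 1 pool with no replicate, so no difference between groups was tested, and every interval given is a 95% interval that covers counting error only.

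Endothelial cells were 2.01% of all cells (95% exact binomial interval 1.71 to 2.35). They were 2.23% at E15 (46 of 2062 cells), 1.87% at E19 (69 of 3695), 1.34% in pups (21 of 1573) and 4.39% in adults (21 of 478, 2.74 to 6.64). The share was highest in the adult esophagus, with 17 of 335 cells or 5.08% (2.98 to 8.00), and this interval lay above those of the E19 esophagus (14 of 988 cells, 1.42%, 0.777 to 2.37) and the pup esophagus (3 of 340 cells, 0.882%, 0.182 to 2.56). It overlapped that of the E15 esophagus (17 of 648 cells, 2.62%, 1.54 to 4.17). In the GE-SCJ the share stayed between 2.11% (13 of 615 cells, pup) and 2.80% (4 of 143 cells, adult), with 17 of 672 cells at E15 and 32 of 1304 at E19. In the stomach it was 1.62% at E15 (12 of 742 cells), 1.64% at E19 (23 of 1403) and 0.809% in pups (5 of 618). A share depends on all the other cells that survived dissociation, and the part of that in these values was not tested.

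**Figure D1:**
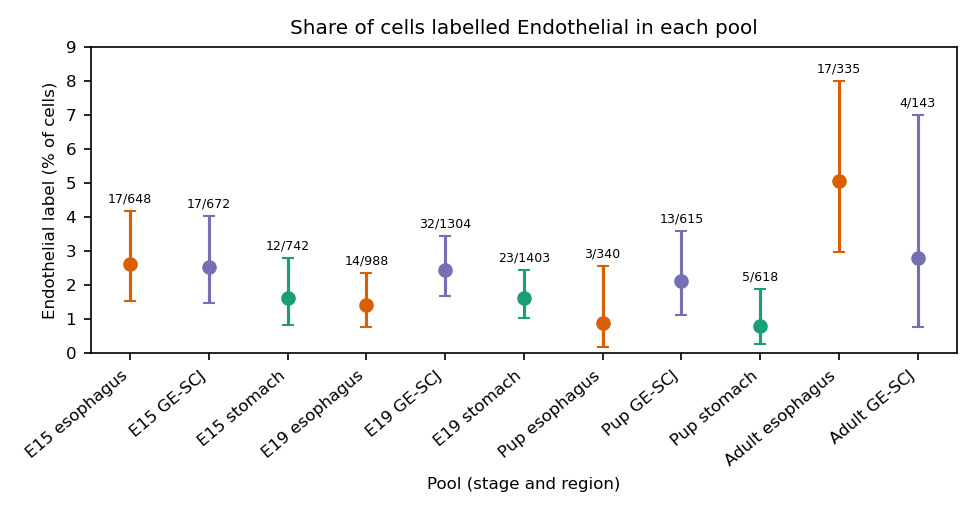
The plot gives the share of cells with the label Endothelial (y axis, % of cells) in each of the 11 pools (x axis), with exact 95% binomial intervals as bars, endothelial cells over all cells printed above, and colour for the region. The adult esophagus stands highest at 5.08%, and the pup stomach lowest at 0.809%.

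The depth differed between the periods. Unique molecular identifiers (UMIs), which count RNA molecules, numbered 1602673 over the 115 prenatal endothelial cells and 178265 over the 42 postnatal ones. The median endothelial cell held 15974.5 UMIs at E15, 9608 at E19, 4618 in pups and 2522 in adults, whereas cells of all other labels held 11415, 10344, 8190 and 8535. The adult endothelial cells were thus the shallowest, and in the adult esophagus their median was 2234 UMIs against 7404 in the other cells. Levels are given below in CPM, that is, the summed UMIs of a gene in a group of cells after scaling the total of that group to 1000000 UMIs. A gene without a UMI could still reach 1.87 CPM in the prenatal and 16.8 CPM in the postnatal cells (3 counts of the total). The period was also joined to the mix of pools, since the stomach gave 35 of 115 prenatal but 5 of 42 postnatal cells. Stage, region mix and depth cannot be told apart in the pooled comparison, so values within 1 region are given beside it.

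Endothelial cells line blood and lymphatic vessels, and are held together by junctions that contain PECAM1 and VE-cadherin (Cdh5). Vascular endothelial growth factors from the surrounding tissue act on KDR and FLT1 in blood vessels and on FLT4 in lymphatic vessels, sprouting is led by tip cells that secrete apelin, and Notch signalling separates arterial from venous cells. Lymphatic endothelium arises from veins under the transcription factor PROX1. The capillaries of the digestive tract carry pores closed by a diaphragm of PLVAP.

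All 4 markers of the label were present. Pecam1 (chr11:106654217-106750628, minus strand, GRCm38), which encodes a junctional adhesion molecule, was at 616 to 894 CPM in the 6 prenatal pools with a median of 683. Postnatally it was at 563 CPM in pup esophagus, 1082 in pup GE-SCJ, 1062 in pup stomach, 1661 in adult esophagus and 1018 in adult GE-SCJ. The adult esophagus was the highest pool, and the prenatal and postnatal ranges overlapped. Cdh5 (chr8:104101625-104144511, plus strand), encoding VE-cadherin, was at 868 to 1152 CPM before birth (median 954) and at 507, 696, 590, 1412 and 1018 CPM in the postnatal pools in the same order. Kdr (chr5:75932827-75978458, minus strand), the main receptor for VEGF-A, was at 632 to 801 CPM before birth (median 684) and at 619, 1082, 1151, 644 and 800 CPM after it. Both genes were present in every pool. Emcn (chr3:137341067-137432185, plus strand), encoding the sialomucin endomucin of capillaries and veins, was at 262 to 574 CPM before birth (median 393) and at 0, 417, 531, 851 and 364 CPM after it. The pool without an Emcn UMI was the pup esophagus, which held only 3 cells.

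At least 2 of the 4 markers had a UMI in 155 of 157 endothelial cells (98.7%) and in 27 of the 7651 other cells (0.353%). All 4 were detected in 122 endothelial cells, 3 in 28, 2 in 5 and 1 in 2 cells, both from pups. Each marker was scarce in every other label. Pecam1 was at 789 CPM over all endothelial cells, and the next label was Immune with 19.1 CPM. Cdh5 was at 960 CPM, and next in Immune with 8.77 CPM. Kdr was at 723 CPM, followed by Neural with 30.7 and Stromal-2 with 20.9 CPM, while Emcn was at 421 CPM and next in Immune with 1.86 CPM. Nearly all cells with the label thus carried its markers.

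**Figure D2:**
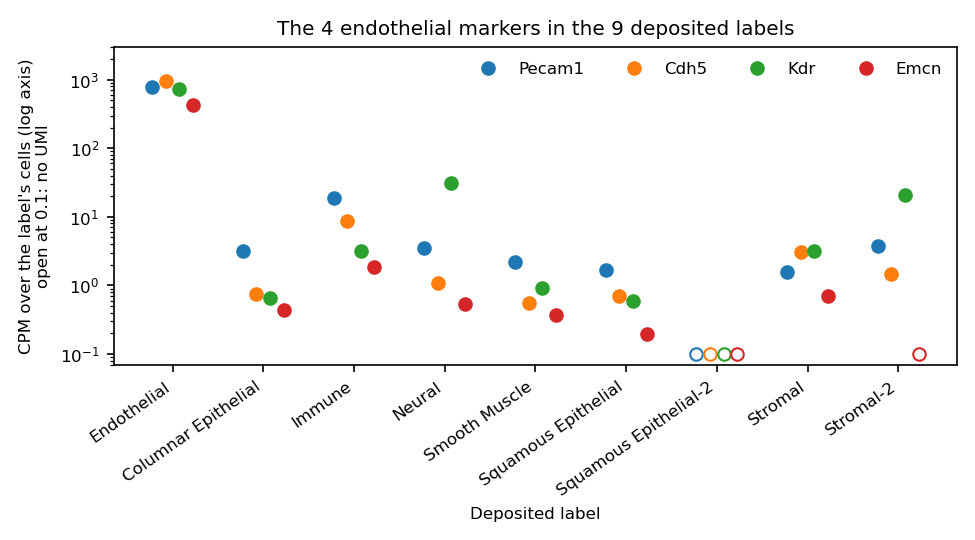
The plot gives the level of Pecam1, Cdh5, Kdr and Emcn (y axis, CPM, log axis) over the cells of each of the 9 deposited labels (x axis), with an open point at the bottom where a label had no UMI. The endothelial points lie between 421 and 960 CPM, and the highest point of any other label is Kdr in Neural cells at 30.7 CPM.

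Markers of the other cell types were read in the endothelial cells as well. None of the 157 cells had a UMI of Ptprc, the pan-leukocyte surface phosphatase, or of Tyrobp, a signalling adaptor of myeloid cells. The 8 immune markers in the files summed to 21.2 CPM before and 39.3 CPM after birth, against 8989 CPM in the cells labelled Immune, and Cd68 was the most abundant at 9.55 CPM. Fibroblast markers summed to 518 CPM before and 494 CPM after birth, against 26257 CPM in Stromal cells, with Col3a1 the most abundant at 164 CPM. Their sum was 955 CPM in the E15 stomach and 1163 CPM in the E19 stomach pool, above the other prenatal pools. Smooth muscle and pericyte markers summed to 202 and 292 CPM, with Acta2 highest at 75.2 CPM. Columnar epithelial markers summed to 867 CPM before and 1560 CPM after birth, against 15721 CPM in Columnar Epithelial cells, and the sum was 2021 CPM in the E19 esophagus. Hemoglobin and other erythroid genes summed to 8136 CPM before and 1268 CPM after birth. Before birth they lay mainly in a few esophageal cells described below, and after it 1 cell of the pup stomach held 149 of the 162 hemoglobin UMIs of its pool. A set of 8 endothelial cells held at least 3 UMIs of the epithelial gene Epcam, or at least 20 UMIs of Col1a1 and Col3a1 together. The part of RNA from other cells in the results was not tested, and the values that moved without these 8 cells are given where they did.

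The stretch of 250 bases before the start site is shown for 2 of the markers and for Tie1 and Apln, whose levels are described below, because ETS factors such as ERG and ETS1 are well known for their sites at endothelial genes. Sequences were taken from RefSeq (GRCm38.p6), and are printed 5′ to 3′ on the strand of the gene. The capitals mark every AGGAAG or CGGAAG, the core letters bound by ETS factors, or the same letters read on the other strand (CTTCCT or CTTCCG). The promoters lie at chr5:75978456-75978705 (Kdr, minus strand), chr3:137340828-137341077 (Emcn, plus strand), chr4:118489850-118490099 (Tie1, minus strand) and chrX:48034854-48035103 (Apln, minus strand).
Kdr: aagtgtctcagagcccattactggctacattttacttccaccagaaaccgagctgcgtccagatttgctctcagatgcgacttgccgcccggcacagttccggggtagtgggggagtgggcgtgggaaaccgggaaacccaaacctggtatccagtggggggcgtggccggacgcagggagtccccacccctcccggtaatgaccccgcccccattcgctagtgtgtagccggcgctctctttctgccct
Emcn: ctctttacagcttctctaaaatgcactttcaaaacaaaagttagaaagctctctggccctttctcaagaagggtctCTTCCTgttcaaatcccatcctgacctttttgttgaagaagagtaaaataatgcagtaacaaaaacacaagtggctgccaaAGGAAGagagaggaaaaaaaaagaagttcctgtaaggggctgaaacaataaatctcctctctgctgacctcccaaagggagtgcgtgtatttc
Tie1: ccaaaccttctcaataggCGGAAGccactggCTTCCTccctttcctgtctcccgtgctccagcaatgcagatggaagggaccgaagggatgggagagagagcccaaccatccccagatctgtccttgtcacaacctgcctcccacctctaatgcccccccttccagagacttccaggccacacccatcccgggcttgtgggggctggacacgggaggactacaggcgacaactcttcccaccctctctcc
Apln: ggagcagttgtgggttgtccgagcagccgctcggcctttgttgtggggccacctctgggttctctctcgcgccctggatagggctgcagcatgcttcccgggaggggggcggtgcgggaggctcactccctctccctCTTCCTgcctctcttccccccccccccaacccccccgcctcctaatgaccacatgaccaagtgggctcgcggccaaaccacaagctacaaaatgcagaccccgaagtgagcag
The letters occurred 2 times in Emcn, 2 times in Tie1 and 1 time in Apln, and were not found in this window of Kdr. They were common in general. At least 1 match lay in 38.95% of all 27025 promoters, in 45.23% of the 11551 promoters of genes compared before birth and in 47.23% of the 379 matched promoters of genes at least 4-fold higher in endothelial cells before birth. A match is a run of letters and not a measured site.

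Endothelial cells were first compared with the cells of all other labels before birth. The labels came from clusters of these same cells, so the ratios are a description. Of 15241 genes with at least 50 UMIs over both groups, 525 (3.44%) were at least 4-fold higher in the endothelial cells. The largest ratio was that of Nkx2-3 (chr19:43612325-43615892, plus strand), a homeobox factor known from the vessels of gut and spleen, with 146 CPM in prenatal endothelial cells against 0.0805 CPM in the others, a log2 ratio of 10.61. Madcam1 (chr10:79664559-79668537, plus strand), the mucosal vessel ligand that binds integrin alpha4beta7 on lymphocytes, followed with 265 against 0.215 CPM (10.19). UMIs of Nkx2-3 were found in 48.7% of prenatal endothelial cells and 0.0709% of the others, and those of Madcam1 in 47.8% and 0.266%, at median depths of 11611 and 10675 UMIs. Both genes thus stood far above the background level of the tissue, and of the 115 cells 56 had a UMI of Nkx2-3, 55 one of Madcam1 and 43 of both. Gpihbp1, which carries lipoprotein lipase across the capillary wall, was at 381 against 0.376 CPM (9.94), and Cldn5, the tight junction claudin of endothelium, at 332 against 0.376 CPM (9.74). The further genes named by their ratio were Gimap4, a GTPase also known from lymphocytes (9.69), the orphan receptor gene Tie1 (9.59), the vascular guidance receptor gene Robo4 (9.52), Myct1 (9.50), Emcn (9.45) and Prnd, which encodes the prion-like protein doppel (9.45).

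After birth 1580 of 13260 genes (11.9%) passed the same 4-fold rule. The count was less certain there, because 1 UMI in the postnatal endothelial cells was worth 5.61 CPM. It was also raised, since the 1 UMI added to each sum was worth far less CPM in the other labels. Genes with few endothelial UMIs thus passed more easily. Among the 3468 genes with at least 10 endothelial UMIs 694 passed, and for 500 genes the counting interval lay wholly past 4-fold. The median gene had a log2 ratio of 0.60 after birth and -0.11 before it, and 880 genes passed after centring on that median. The highest ratios belonged to Ccl21a, the lymphatic chemokine that guides dendritic cells, with 2530 against 0.285 CPM (log2 ratio 12.97), Gpihbp1 with 611 CPM (12.25), Cldn5 with 746 CPM (11.73) and the phosphatase gene Ptprb with 1066 against 0.317 CPM (11.59). Adgrl4 (10.71), Flt4 (10.59), Tie1 (10.53), Cyyr1 (10.30), Emcn (10.09) and Cdh5 (9.91) followed. In both periods together 296 genes were at least 4-fold higher. They were 56.4% of the prenatal set and 18.7% of the postnatal set. Of the prenatal set 348 genes had enough UMIs to be compared after birth, and the 296 were 85.1% of those.

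The genes were then read in groups by their known role. All 18 of the general junction and surface genes of endothelium were at least 4-fold higher than in other labels before birth, and so were all 16 that could be compared after it, against 3.44% and 11.9% of all genes. Egfl7, a secreted protein of the vessel wall, was at 859 CPM before and 741 CPM after birth, Ramp2, the co-receptor for adrenomedullin, at 650 and 813 CPM, and Cd93 at 645 and 819 CPM. Of the 145 postnatal Ramp2 UMIs 76 lay in the lymphatic-positive cells described below. Among 21 endothelial transcription factors 17 passed the 4-fold rule before birth, against 3.44% of all genes. The ETS family genes Ets1 (374 and 471 CPM) and Elk3 (339 and 516 CPM) and the MADS-box gene Mef2c (385 and 314 CPM) had the most UMIs besides Ets2. Lymphatic-positive cells held 47 of the 92 postnatal Elk3 UMIs. Erg was at 42.9 to 92.2 CPM in the prenatal pools (median 80.1), and at 56.3, 201, 236, 145 and 218 CPM in the postnatal pools, from pup esophagus to adult GE-SCJ. The forkhead gene Foxf1 was lower in endothelial than in Smooth Muscle cells. Over all stages its level was 43.2 CPM in endothelial and 261 CPM in Smooth Muscle cells.

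Of 10 VEGF receptors and ligands 3 were at least 4-fold higher in endothelial cells before birth and 6 of 9 after it, against 3.44% and 11.9% of all genes. Flt1, a decoy and signalling receptor for VEGF, was at 466 to 813 CPM before birth (median 568) and at 0, 1236, 1298, 1142 and 291 CPM after it. Neuropilin co-receptor genes Nrp1 and Nrp2 were at 274 and 279 CPM before birth and at 443 and 522 CPM after it. Without 1 pup GE-SCJ cell that held 42 of its 93 postnatal UMIs, Nrp2 was at 319 CPM. In the TIE group Tek, the angiopoietin receptor, was at 113 to 202 CPM before birth (median 143) and at 0, 92.7, 59.0, 166 and 291 CPM after it, and the ligand gene Angpt4 had no UMI in the endothelial cells. Among 9 Notch pathway genes 4 passed the 4-fold rule before birth and 8 after it, beside the same shares of all genes, 3.44% and 11.9%. Notch1 was at 150 to 269 CPM before birth (median 175) and at 563, 309, 177, 311 and 509 CPM after it. The Notch1 ranges overlapped, as did those of Flt1 and Tek.

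Arterial and venous genes were both found. Of 11 arterial genes compared before birth 5 passed the 4-fold rule, and of 9 venous genes 4, against 3.44% of all genes. The arterial ligand gene Efnb2 was at 172 CPM before and 180 CPM after birth, and the arterial factor gene Sox17 at 98.0 and 84.1 CPM. Of the 32 postnatal Efnb2 UMIs 16 lay in the lymphatic-positive cells described below. The connexin gene Gja5, typical of larger arteries, had 4 UMIs in all. Nr2f2, the factor of venous identity, was at 85.8 to 282 CPM before birth (median 208) and at 1070, 680, 206, 228 and 364 CPM after it. Lymphatic-positive cells held 66 of its postnatal UMIs, and all 3 cells of the pup esophagus were of this kind. The Nr2f2 stage ratio without them is given below. Over all stages Nr2f2 was at 241 CPM in endothelial and 318 CPM in Stromal cells. Among the 115 prenatal cells the arterial connexin gene Gja4 was detected in 22 and Nr2f2 in 75, and both in 8. The apelin receptor gene Aplnr, a venous and capillary gene, was detected in 94 cells and together with Nr2f2 in 69.

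Basement membrane genes of the vessel wall were abundant. Of 14 genes 7 were at least 4-fold higher than in other labels before birth, and 9 after it, against 3.44% and 11.9% of all genes. The collagen IV genes Col4a1 (2269 CPM before and 1874 CPM after birth) and Col4a2 (975 and 1100 CPM) and the matrix gene Sparc (1943 and 1352 CPM) differed less than 2-fold between the periods. Plvap, the diaphragm protein of fenestrated capillaries, was at 381 to 868 CPM before birth (median 606) and at 0, 896, 1652, 623 and 0 CPM after it. It was found in 86.1% of prenatal endothelial cells and 1.06% of the other cells. The 2 postnatal pools without a Plvap UMI were the pup esophagus with 3 cells and the adult GE-SCJ with 4.

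Prenatal and postnatal endothelial cells were next compared, over 5423 genes with at least 50 endothelial UMIs over both periods. At least 2-fold higher before birth were 646 genes (11.9%), and at least 2-fold higher after birth 693 genes (12.8%). The counting interval lay wholly past 2-fold for 92 and 209 of them. The median gene had a log2 ratio of -0.04 in endothelial cells (prenatal over postnatal) and of 0.38 in the other labels. Of the genes higher before birth 258 were also at least 2-fold higher in the other labels, and of those higher after birth 91 were. The stage ratios were then set against those of all other labels together. The mix of those labels differed too, with Stromal cells 3085 of 5642 other cells before birth and 357 of 2009 after it. A stage ratio in the other labels, here and below, therefore holds this mix, and its part was not tested. Of 5392 genes 356 (6.60%) had a ratio at least 2-fold further toward the prenatal side in endothelial cells. For 1374 genes (25.5%) it lay at least 2-fold further toward the postnatal side. After centring each group on its median gene the counts were 755 and 740, so the balance of the sides depended on that scaling. In pools with at least 5 endothelial cells (6 prenatal pools and the 3 postnatal pools of adult esophagus, pup GE-SCJ and pup stomach) 788 genes (14.5%) had every prenatal pool above every postnatal pool and 476 genes (8.78%) the opposite. In these 3 postnatal pools a count of 0 still allows 62.3, 46.4 and 88.5 CPM, so the order is that of the levels found.

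**Figure D3:**
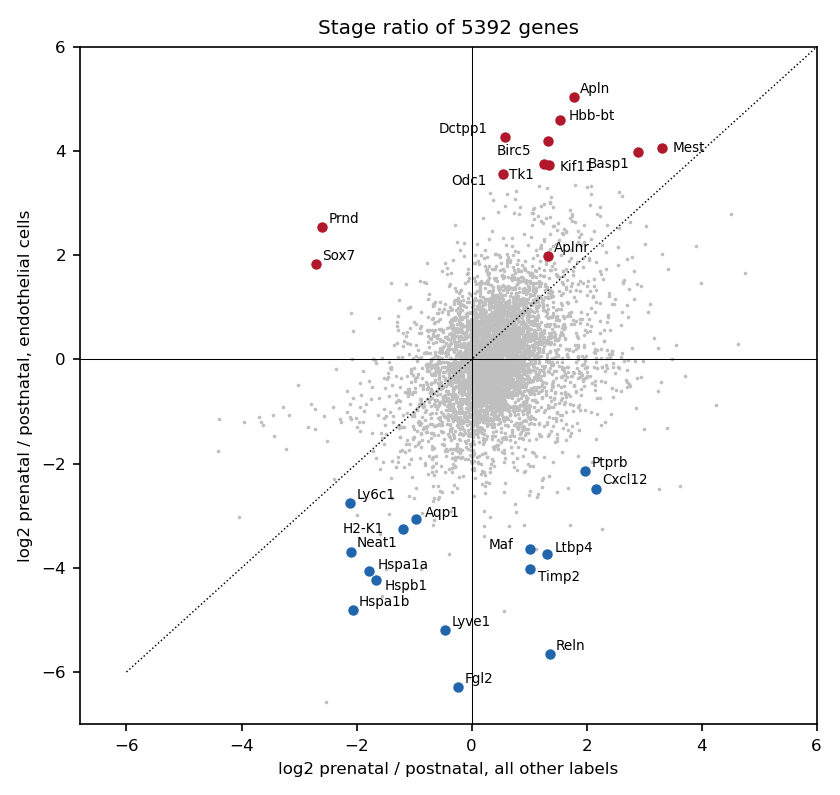
The plot sets the log2 ratio of prenatal over postnatal levels in endothelial cells (y axis) against that in all other labels (x axis) for 5392 genes, with 1 UMI added to each sum and named genes in red (higher before birth) or blue (higher after birth). Apln and Odc1 lie well above the dotted line of equal ratios, Prnd and Sox7 lie high in endothelial cells and low in the others, and Reln, Timp2 and Ptprb lie below 0 in endothelial cells and above 0 in the others.

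Apln (chrX:48025146-48034853, minus strand), the apelin gene of sprouting tip cells whose promoter is printed above, was at 314 CPM in E15 esophagus, 172 in E15 GE-SCJ, 100 in E15 stomach, 177 in E19 esophagus, 222 in E19 GE-SCJ and 125 CPM in E19 stomach. It had 293 UMIs before birth and none in any postnatal pool. The prenatal level of 183 CPM (162 to 205) was thus at least 10.9-fold higher than the postnatal limit of 16.8 CPM. UMIs of Apln lay in 51.3% of prenatal endothelial cells and 1.63% of the other prenatal cells. The log2 ratio in the other labels was 1.78. Its receptor gene Aplnr was at 350 to 601 CPM in the prenatal pools (median 546) and at 0, 15.5, 0, 436 and 72.7 CPM in the postnatal pools, so that the adult esophagus lay within the prenatal range. Over all cells the Aplnr log2 ratio was 1.98 (1.44 to 2.71), against 1.33 in the other labels. Of the 115 prenatal cells 59 had a UMI of Apln, 94 one of Aplnr and 55 of both. The third gene of the system, the alternative ligand gene Apela, had no UMI in the endothelial cells.

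Most other tip cell genes did not share the Apln pattern. Of 6 tip cell genes compared 2 were at least 2-fold higher before birth, Apln and the basement membrane gene Nid2 (163 against 44.9 CPM), and 2 after it, against 11.9% and 12.8% of all genes. Pdgfb, the ligand that recruits pericytes, was at 163 CPM before and 208 CPM after birth. Dll4, the Notch ligand of tip and arterial cells, was at 23.1 to 80.7 CPM before birth (median 35.8) and at 0, 155, 118, 62.3 and 0 CPM after it. Its log2 ratio was -1.23 (-1.95 to -0.31).

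Mest (chr6:30723547-30748465, plus strand), an imprinted hydrolase gene of fetal mesoderm, was at 1933 to 2377 CPM in the prenatal pools (median 2184) and at 225, 92.7, 266, 41.5 and 72.7 CPM in the postnatal pools. Every prenatal pool lay above every postnatal pool, with a log2 ratio of 4.07 (3.53 to 4.81) against 3.31 in the other labels, where the highest level over all stages was 425 CPM in Neural cells. Of 14 imprinted and fetal growth genes compared 6 were at least 2-fold higher before birth (Igf2, Mest, Plagl1, Cdkn1c, Igf2bp1 and Peg10), against 11.9% of all genes, and none after it, with a median log2 ratio of 0.89 against -0.04 over all genes and 1.74 for the same genes in the other labels. Igf2, the fetal growth factor, was at 525 to 1102 CPM before birth (median 779) and at 169, 649, 118, 83.0 and 0 CPM after it. The pup GE-SCJ lay within the prenatal range, where 1 cell held 26 of the 53 postnatal Igf2 UMIs, and the postnatal level of 297 CPM was 169 CPM without it. H19, the imprinted RNA beside Igf2, was at 1298 CPM before and 1262 CPM after birth, a log2 ratio of 0.04 against 1.57 in the other labels. Of its 225 postnatal UMIs 1 cell held 102, and 176 lay in the lymphatic-positive cells described below. Without those cells H19 had 1677 UMIs before and 49 after birth, a log2 ratio of 1.51 (1.13 to 1.98).

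Odc1, the first enzyme of polyamine synthesis, was at 358 to 661 CPM before birth (median 507) and at 0, 30.9, 29.5, 83.0 and 0 CPM after it. Its log2 ratio was 3.55 (2.70 to 5.06) in endothelial cells and 0.54 in the others. Prnd was at 193 to 354 CPM before birth (median 236) and at 0, 15.5, 0, 125 and 0 CPM after it. Sox7, an endothelial factor of the SOXF family, was at 96.5 to 210 CPM before birth (median 142) and at 0, 46.4, 0, 62.3 and 72.7 CPM after it. In all 3 genes every prenatal pool lay above every postnatal pool by the levels found. A count of 0 still allows 169 CPM in the pup esophagus, above the lowest prenatal pool of Sox7. In the adult GE-SCJ it allows 218 CPM, above the lowest prenatal pool of Prnd. Prnd had a log2 ratio of 2.55 (1.68 to 4.06) against -2.60 in the other labels, and Sox7 of 1.83 (0.95 to 3.35) against -2.70. Outside the endothelium Prnd had most UMIs in Columnar Epithelial cells (73) and Sox7 in Squamous Epithelial cells (86). These labels held 862 and 265 cells before birth and 678 and 425 after it. The part of this mix in the negative ratios was not tested. The related factors Sox17 and Sox18 were nearer to 0, with 0.14 (-0.55 to 1.09) and -0.34 (-0.77 to 0.17). Further genes named by their ratio were without a UMI after birth, namely Dctpp1, a nucleotide pyrophosphatase (172 UMIs before birth, at least 6.38-fold higher), Basp1, a membrane protein of growth cones (142 UMIs, at least 5.26-fold), and the replication and mitosis genes Tk1 (120 UMIs) and Kif11 (119 UMIs).

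All 20 genes of mitosis and DNA replication were at least 2-fold higher before birth, against 11.9% of all genes. For 16 of them every prenatal pool lay above every postnatal pool of at least 5 cells, against 14.5% of all genes. Since a count of 0 allows 46.4 to 88.5 CPM in these postnatal pools, the order of the less abundant genes is by the levels found only. Their median log2 ratio was 2.20 in endothelial cells and 1.41 in the other labels. Their summed level was 7604 CPM at E15, 7229 CPM at E19, 2192 CPM in pups and 1228 CPM in adults. Birc5, which encodes the mitotic regulator survivin, was at 145 to 251 CPM before birth (median 196) and had 1 UMI after it, in pup stomach, with a log2 ratio of 4.20 (2.71 to 10.51). The other labels had a Birc5 ratio of 1.33.

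Cells with UMIs of both Mki67, a protein of cycling nuclei, and Top2a, the topoisomerase of replicating cells, were 20 of 46 at E15 (43.5%, 28.9 to 58.9), 23 of 69 at E19 (33.3%, 22.4 to 45.7), 2 of 21 in pups (9.52%) and 0 of 21 in adults, which allows a share of up to 14.3% (3 counts of the total). In the other labels the shares were 24.4%, 18.7%, 8.63% and 19.3%. Detection depends on depth, and after thinning of each cell to 2000 UMIs the endothelial shares were 23.9%, 13.8%, 0% and 0%, against 10.3%, 7.00%, 1.98% and 10.5% in the other labels. At both stages before birth the endothelial share was above that of the other labels. After thinning the E19 interval (6.53% to 24.7%) included the share of the other labels, and the 0 of 14 adult cells allow a share of up to 21.4%, above the 10.5% of the other labels. By pool the shares were 35.3%, 58.8% and 33.3% in E15 esophagus, GE-SCJ and stomach, and 21.4%, 40.6% and 30.4% at E19. The thinned values were 17.6%, 29.4% and 25.0% at E15 and 0%, 17.2% and 17.4% at E19, and the intervals of the 3 regions overlapped at either stage.

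**Figure D4:**
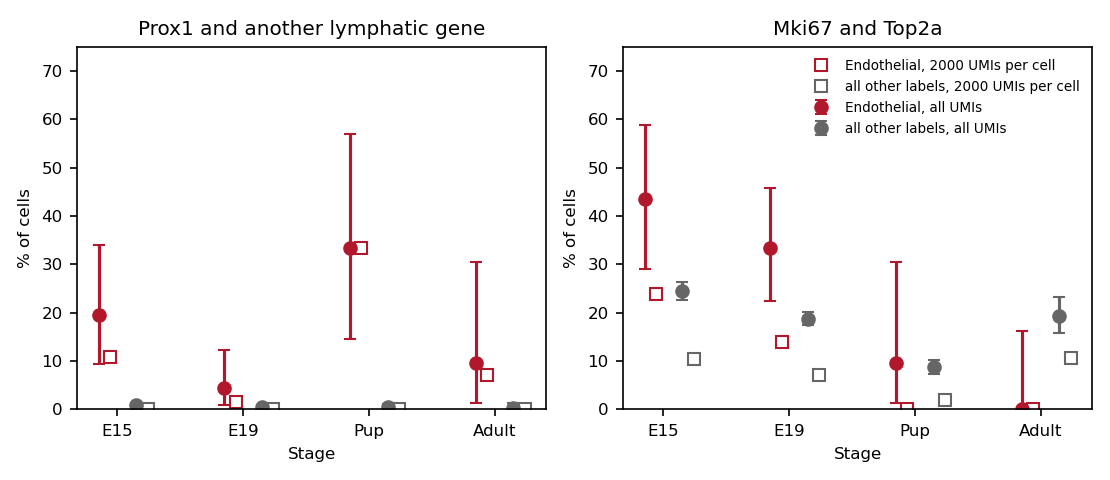
The plots give the share of cells (y axis, % of cells) with UMIs of Prox1 and another lymphatic gene on the left and of Mki67 and Top2a on the right at each stage (x axis), for endothelial cells in red and all other labels in grey, with exact 95% binomial intervals and open squares after thinning to 2000 UMIs per cell. The endothelial share on the right goes from 43.5% at E15 to 0% in adults, and that on the left is highest in pups at 33.3%.

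Lymphatic endothelial genes were the group with the largest difference toward the postnatal side. Of 7 lymphatic genes compared 6 were at least 2-fold higher after birth (Prox1, Lyve1, Flt4, Reln, Ccl21a and Itga9), against 12.8% of all genes, with a median log2 ratio of -3.17 against 1.36 for the same genes in the other labels. The list summed to 746 CPM before and 7068 CPM after birth. Lyve1 (chr7:110850607-110863239, minus strand), a hyaluronan receptor of lymphatic vessels and of some macrophages, was at 0 to 98.0 CPM in the prenatal pools (median 61.0) and at 6307, 1994, 2567, 83.0 and 1018 CPM in the postnatal pools. The adult esophagus was within the prenatal range and the other 4 postnatal pools were above it. Over all stages Lyve1 was at 241 CPM in endothelial and 419 CPM in Immune cells. Ccl21a was at 0 to 640 CPM before birth (median 149) and at 4280, 3818, 620, 747 and 5164 CPM after it. Reln, a secreted glycoprotein of lymphatic endothelium, was at 0 to 37.9 CPM before birth (median 12.1) and at 2140, 1020, 531, 20.8 and 727 CPM after it. The log2 ratios were -5.20 for Lyve1, -3.54 for Ccl21a and -5.65 for Reln in endothelial cells, against -0.46, 0.61 and 1.36 in the other labels.

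These genes lay in few cells. Prox1 together with at least 1 of Lyve1, Flt4, Mmrn1, Reln, Pdpn and Ccl21a was found in 21 of 157 endothelial cells (13.4%, 8.47 to 19.7) and in 37 of 7651 other cells (0.484%), of which 10 were among the 354 Immune cells (2.82%). By stage these lymphatic-positive cells were 9 of 46 at E15 (19.6%, 9.36 to 33.9), 3 of 69 at E19 (4.35%, 0.906 to 12.2), 7 of 21 in pups (33.3%, 14.6 to 57.0) and 2 of 21 in adults (9.52%, 1.18 to 30.4). The intervals of E19 and pups did not overlap, and those of the other neighbouring stages did. After thinning to 2000 UMIs the shares were 10.9%, 1.54%, 33.3% and 7.14%. With at least 2 UMIs of Prox1 and of another lymphatic gene 5 cells remained at E15, 1 at E19, 5 in pups and 2 in adults. By pool they were 3 of 17, 3 of 17 and 3 of 12 cells in E15 esophagus, GE-SCJ and stomach, 0 of 14, 2 of 32 and 1 of 23 at E19, 3 of 3, 3 of 13 and 1 of 5 in pups, and 0 of 17 and 2 of 4 in adult esophagus and GE-SCJ. All 3 endothelial cells of the pup esophagus were thus of this kind, and 0 of 17 in adult esophagus allows a share of up to 17.6% (3 counts of the total).

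Lymphatic-positive cells held 98.6% of all endothelial Lyve1 UMIs and 95.5% of those of Ccl21a. Their level against the remaining endothelial cells, over all stages, was 533 against 0.671 CPM for Reln and 1458 against 4.03 CPM for Lyve1, both of which the rule could use. Genes outside the rule were Fgl2, a fibrinogen-like protein (log2 ratio 6.93), Cp, which encodes ceruloplasmin (5.76), Slc45a3 (5.87), Pard6g (5.07), the transcription factor gene Maf (3.93), the metalloproteinase inhibitor gene Timp2 (3.72) and the VEGF-C co-receptor gene Nrp2 (1.71). Cxcl12 (-2.46), Fabp4 (-1.38) and Cd36 (-1.06), which belong to blood vessels, were lower in them, and Rbp7 and Cxcr4 had no UMI there. Over all stages pooled, the general markers were similar, with log2 ratios of -0.16 for Cdh5, -0.38 for Pecam1, 0.28 for Kdr and -0.20 for Emcn. This did not hold for each period. In the 9 postnatal lymphatic-positive cells Emcn was at 145 CPM and Cdh5 at 549 CPM, against 433 and 961 CPM in the 12 prenatal ones. Pecam1 (614 and 634 CPM) and Kdr (856 and 843 CPM) differed little between these cells. These values are a description, since the cells were chosen by Prox1 and its companions.

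Within the lymphatic-positive cells the stage difference depended on the rule. Lyve1 was at 367 CPM in the 12 prenatal and 5491 CPM in the 9 postnatal cells (log2 ratio -3.89), Reln at 100 and 2132 CPM (-4.36), Ccl21a at 1521 and 6702 CPM (-2.14), Fgl2 at 135 and 4877 CPM (-5.13) and Prox1 at 275 and 969 CPM (-1.82). Of the 12 prenatal cells, however, only 5 had a UMI of Lyve1, 5 of Reln and 6 of Ccl21a, whereas all 9 postnatal cells had each of them, and 1 cell held 186 of the 348 prenatal Ccl21a UMIs. Flt4 was found in 11 of the 12 prenatal cells, but also in 64 of all 115 prenatal endothelial cells. It therefore set the prenatal cells of the rule apart less than the other genes. With at least 2 UMIs of Prox1 and of another lymphatic gene, 6 prenatal and 7 postnatal cells remained. Lyve1 was then at 1373 and 5516 CPM (-1.99, -2.37 to -1.65), Reln at 376 and 1851 CPM (-2.25, -3.02 to -1.63) and Fgl2 at 425 and 4580 CPM (-3.38, -4.07 to -2.84). These 3 genes were thus higher after birth under both rules. Ccl21a, in contrast, was at 5689 and 6489 CPM (-0.19, -0.41 to 0.03) and Prox1 at 932 and 1107 CPM (-0.25, -0.80 to 0.30), and both intervals included 0. The prenatal cells left out by the stricter rule carried most UMIs of 3 blood vessel genes. Aplnr was at 507 CPM in the 12 prenatal cells and had no UMI in the 6 that remained, Plvap went from 538 CPM to 2 UMIs and Madcam1 from 372 CPM to 1 UMI. The 9 postnatal cells came mostly from pups, so the adult state rests on 2 cells.

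Without the lymphatic-positive cells some of the stage ratios were near 0. Of Lyve1, Reln and Ccl21a then only 6, 1 and 36 UMIs were left after birth and none before it. Flt4, the VEGF-C receptor of lymphatic vessels, went from a log2 ratio of -2.46 to 0.42, Cldn5 from -1.18 to -0.12 and Nr2f2 from -1.18 to 0.01. Fgl2 and Timp2, at -6.28 and -4.02 in all cells, were left with 4 and 28 UMIs before and 9 and 11 UMIs after birth, too few for a ratio by the minimum of 50. Other genes kept their direction, with Maf at -3.08 (-3.64 in all cells), Mest at 4.09, Odc1 at 2.98, Sox7 at 1.27 and Prnd at 2.02, and Apln was still at least 7.20-fold higher before birth. Ltbp4, a matrix protein that binds latent TGF-beta, was at 22.4 to 112 CPM in the prenatal pools (median 58.7) and at 1182, 927, 472, 893 and 1746 CPM after birth. All 5 postnatal pools lay above the prenatal ones, and the ratio of -3.73 was -3.34 without lymphatic-positive cells, against 1.31 in the other labels.

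Ptprb, the phosphatase that restrains TIE2 and VE-cadherin signalling, was at 176 to 306 CPM before birth (median 229) and at 113, 1144, 1062, 1453 and 582 CPM after it. All postnatal pools but the pup esophagus, which held lymphatic-positive cells only, lay above the prenatal range. The Ptprb log2 ratio was -2.15 (-2.40 to -1.89), -2.78 without lymphatic-positive cells, and 1.98 in the other labels. Adgrl4, an adhesion receptor of endothelium, was at 61.6 to 85.8 CPM before birth (median 73.3) and at 0, 278, 325, 664 and 291 CPM after it, and again only the pup esophagus was not above the prenatal pools. Of 3 TIE group genes compared Tie1 and Ptprb were at least 2-fold higher after birth, against 12.8% of all genes. Tie1, with a log2 ratio of -1.02, was at -0.81 without lymphatic-positive cells, under 2-fold.

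Of 11 capillary and fenestration genes compared 5 were at least 2-fold higher after birth (Cd36, Cd300lg, Aqp1, Ehd4 and Fabp4), against 12.8% of all genes, and none before it, with a median log2 ratio of -0.96. The other labels had the same median for these genes, -0.96. Aqp1 (chr6:55336432-55348555, plus strand), the water channel of capillaries, was at 15.4 to 230 CPM before birth (median 87.2) and at 56.3, 201, 118, 2284 and 946 CPM after it. The adult pools stood above all others, and the 3 pup pools lay within the prenatal range. Fabp4, the fatty acid binding protein of capillary endothelium, was at 886 to 4159 CPM before birth (median 1958) and at 901, 2844, 4957, 7557 and 7346 CPM after it. Cd36, the fatty acid transporter, was at 212 to 665 CPM before birth (median 350) and at 113, 556, 708, 1702 and 1818 CPM after it. For both the adult pools were highest. The other labels had stage ratios of -2.26 for Fabp4 and -2.84 for Cd36, larger than the -1.19 and -1.29 of the endothelial cells.

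Cxcl12, the chemokine that recruits CXCR4-bearing cells, was at 4.48 to 154 CPM before birth (median 57.9) and at 56.3, 46.4, 0, 1100 and 654 CPM after it. The Cxcl12 log2 ratio was -2.48 in endothelial cells and 2.16 in the others, and the adult pools alone lay above the prenatal range. Outside the endothelium Cxcl12 was highest in Stromal cells (188 CPM over all stages), a label with 3085 prenatal and 357 postnatal cells. The part of that mix in the 2.16 was not tested. Vwf, the clotting factor of venous and larger vessels, was at 3.44 to 222 CPM before birth (median 41.3) and at 0, 46.4, 148, 623 and 0 CPM after it. The adult esophagus was the highest pool, and 1 cell held 67 of the 113 prenatal Vwf UMIs. Selp, encoding P-selectin of activated venules, had no UMI before birth and 13 after it, all in the adult esophagus, where 1 of 2 cells held 11 of them. Of 10 angiocrine and vasoactive genes compared 2 were at least 2-fold higher before birth (Apln and Tfpi) and 5 after it (Edn1, Ece1, Cxcl12, Thbd and Vwf), against 11.9% and 12.8% of all genes. Ece1, the enzyme that activates endothelin, was at 165 CPM before and 651 CPM after birth, and Thbd, the thrombin receptor thrombomodulin, at 84.9 and 348 CPM. Lymphatic-positive cells held 69 of the 116 postnatal Ece1 UMIs.

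Of 12 MHC class I and interferon response genes compared 9 were at least 2-fold higher after birth, against 12.8% of all genes, and none before it, with a median log2 ratio of -1.58 against 0.38 in the other labels, and for 5 of them every postnatal pool of at least 5 cells lay above every prenatal pool, against 8.78% of all genes. The list summed to 1901 CPM at E15, 2994 at E19, 3997 in pups and 13179 CPM in adults. The 9 genes were B2m, H2-K1 and H2-D1 of MHC class I and Ifitm3, Ly6a, Ly6c1, Ly6e, Gbp7 and Irf1. H2-K1, a class I heavy chain, was at 22.4 to 57.5 CPM before birth (median 43.8) and at 169, 46.4, 88.5, 914 and 1454 CPM after it. Ly6c1, a surface protein of vessels, was at 61.6 to 199 CPM before birth (median 131) and at 0, 742, 443, 1474 and 2036 CPM after it. The adult pools were the highest for both genes. H2-K1 differed little between E19 and pup GE-SCJ (54.8 and 46.4 CPM), whereas it was at 29.3 CPM in prenatal and 914 CPM in adult esophagus.

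**Figure D5:**
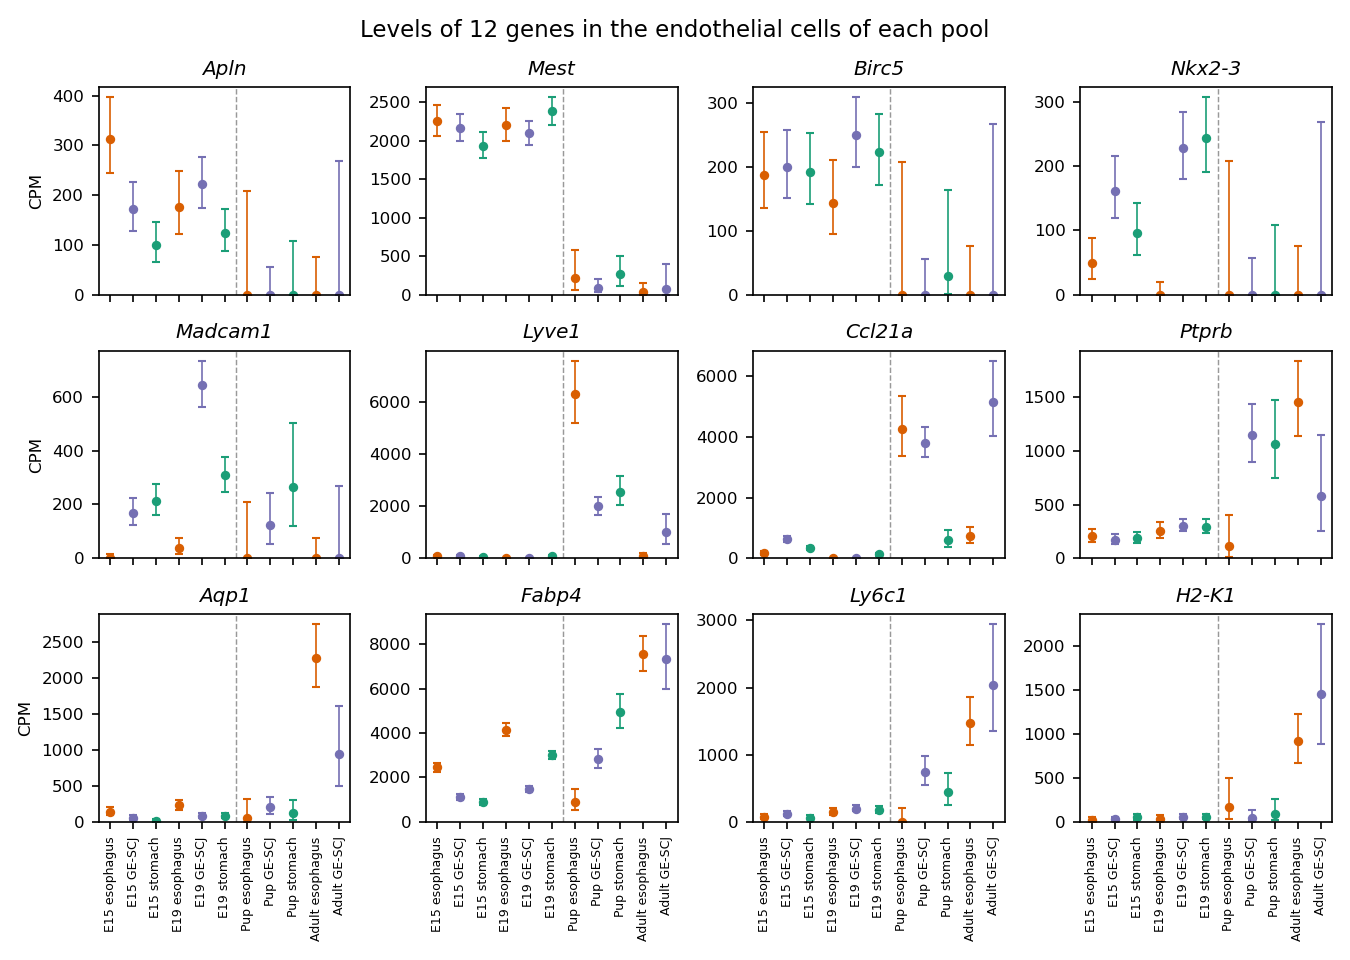
The panels give the level of 12 genes (y axis, CPM) in the endothelial cells of each of the 11 pools (x axis), with exact 95% Poisson intervals, colour for the region and a dashed line between prenatal and postnatal pools. Apln and Mest are high in all 6 prenatal pools, Lyve1 is high in the pup pools, and Aqp1, Fabp4, Ly6c1 and H2-K1 are highest in the adult pools.

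Immediate early genes, which respond within minutes to stress and handling, were also higher after birth. Of 16 genes 13 were at least 2-fold higher, against 12.8% of all genes, and none was at least 2-fold lower, with a median log2 ratio of -1.34 against -0.40 in the other labels. The list summed to 3704 CPM before and 9334 CPM after birth in endothelial cells, and to 7029 and 8225 CPM in the others. The heat shock gene Hspa1b was at 26.8 CPM before and 763 CPM after birth, with 0, 294, 59.0, 1017 and 4800 CPM in the postnatal pools. A single cell of the adult GE-SCJ held 54 of the 136 postnatal Hspa1b UMIs, and the level without it was 473 CPM. Its log2 ratio was -4.81 against -2.06 in the other labels. Hspb1 (-4.22), Hspa1a (-4.06) and the nuclear RNA gene Neat1 (-3.69) were higher after birth too. The mitochondrial share of endothelial UMIs was 1.97% before and 2.81% after birth. The part of handling in the stage differences was not tested.

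The same stages were compared within 1 region. In the GE-SCJ, E19 (32 cells) was set against pup (13 cells). Apln was at 222 against 0 CPM (at least 4.79-fold higher), Mest at 2093 against 92.7 CPM (log2 ratio 4.28), Odc1 at 643 against 30.9 CPM (3.80), Aplnr at 588 against 15.5 CPM (4.26) and Ptprb at 306 against 1144 CPM (-1.91). Lyve1 went from 0 to 1994 CPM and Ccl21a from 0 to 3818 CPM, at least 231-fold and 442-fold higher in pup. In the esophagus the prenatal cells (31) were set against the adult cells (17). Apln was at 251 against 0 CPM (at least 4.04-fold higher), Mest at 2228 against 41.5 CPM (5.16), Aqp1 at 183 against 2284 CPM (-3.63), Cxcl12 at 24.4 against 1100 CPM (-5.38) and Ptprb at 227 against 1453 CPM (-2.68). Aplnr, in contrast, was at 415 and 436 CPM (-0.13), and Lyve1 at 51.2 and 83.0 CPM. The directions of Apln, Mest and Ptprb were the same in the pooled and in both region-matched comparisons. The region-matched cells were part of the pooled ones, and these 3 genes had been named by their pooled stage values. Their like directions are therefore a description and no separate support. The ratios of Aplnr and Lyve1 were large in the GE-SCJ and small in the esophagus. The postnatal stage was not the same in these comparisons, pup in the GE-SCJ and adult in the esophagus, so region and stage cannot be told apart there.

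Regions were compared before birth, over 3262 genes. Of these 46 (1.41%) were at least 2-fold higher in esophageal than in stomach endothelial cells, and 73 (2.24%) at least 2-fold higher in stomach. By the counting interval 18 and 16 genes remained, and without the 8 cells of mixed content 25 and 40, so the balance of the sides depended on the rule. Madcam1 was at 17.1 CPM in esophagus, 427 CPM in GE-SCJ and 263 CPM in stomach, with a log2 ratio of esophagus over stomach of -3.76. Nkx2-3 was at 26.8, 198 and 175 CPM. At E15 Nkx2-3 was at 49.3 CPM in esophagus, and at E19 it had no UMI there, while the other prenatal pools reached 243 CPM. The esophagus was thus the lowest region for both genes. Of Nkx2-3 no UMI was found after birth, at least 8.68-fold below the prenatal 146 CPM. Madcam1 was at 0, 124, 266, 0 and 0 CPM in the postnatal pools. Its counts of 0 still allow 169 CPM in the pup esophagus and 218 CPM in the adult GE-SCJ, above the 124 CPM of the pup GE-SCJ. In the adult esophagus they allow 62.3 CPM.

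Klf2, a factor induced by blood flow, was at 58.6 CPM in esophagus, 394 in GE-SCJ and 304 CPM in stomach (-2.33), and Gja4 at 7.30, 92.6 and 68.4 CPM (-2.85). Bdkrb2, a bradykinin receptor, was at 0 and 5.36 CPM in the E15 and E19 esophagus and at 44.8 to 57.5 CPM in the other prenatal pools. Gpihbp1 went the other way, with 727 CPM in esophagus, 250 in GE-SCJ and 275 CPM in stomach (1.40). It was at 690 and 772 CPM in the E15 and E19 esophagus and at 182 to 338 CPM in the other 4 prenatal pools. Klf2 and Klf4 were the 2 of 14 endothelial transcription factors at least 2-fold higher in stomach. Immediate early genes, a list that also holds Klf2 and Klf4, were so in 4 of 12 cases, against 2.24% of all genes. The 2 counts thus share these genes.

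The 4 genes Hbb-bt, Hba-a2, Hbb-bs and Hba-a1, which encode hemoglobin of red cells, led the esophageal side with log2 ratios of 6.85, 5.43, 5.20 and 5.20. Most of their UMIs lay in 1 of 17 endothelial cells of the E15 esophagus, where hemoglobin made up 49.1% of its UMIs, and in 3 of 14 of the E19 esophagus, with up to 31.7%. Without all cells above 1% hemoglobin (6 endothelial cells in all) the ratios were 0.86, 0.39, 0.88 and 1.44, and that of Madcam1 went from -3.76 to -5.60. Golm1, a Golgi membrane protein, was at 67.2 and 91.1 CPM in the E15 and E19 esophagus against 7.70 and 10.1 CPM in stomach, and, over all stages, at 146 CPM in Columnar Epithelial cells. Its log2 ratio of 2.90 was 2.78 without the 8 cells of mixed content and 2.98 without the hemoglobin-rich cells. On the stomach side Dcn, the stromal proteoglycan decorin, was at 0 and 10.7 CPM in E15 and E19 esophagus and at 69.3 and 162 CPM in stomach, beside 3447 CPM in Stromal cells of all stages. Its log2 ratio of -4.04 was -1.42 without the 8 cells of mixed content. Mgp and Dlk1, with 1184 and 1456 CPM in Stromal cells, went from -3.53 to -1.42 and from -2.94 to -0.80 in the same way, while Bdkrb2 was at -3.47 with and -3.27 without those cells.

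Pgc, the pepsinogen C gene of gastric epithelium, had a UMI in 100% of prenatal endothelial cells and 99.7% of the other prenatal cells. Its level was 644 CPM before and 1481 CPM after birth in endothelial cells, 1317 and 20527 CPM in the other labels, and 15987 CPM in Columnar Epithelial cells of all stages. A share like that of all other cells does not set the endothelium apart, and the source of these UMIs was not tested. Pgc, Clps and Hpgd were among the genes whose stage ratio lay furthest toward the prenatal side of that in other labels, with -1.21 against -3.96 for Pgc, -1.14 against -4.40 for Clps and 1.47 against -1.41 for Hpgd.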

How the data were processed

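Libraries were made with the 10x 3′ CellPlex method, and the authors counted UMIs per gene and cell with Cell Ranger multi on mm10. The deposited matrix holds these raw counts for 19550 genes and 7808 cells with unique barcodes, and the deposited cell table gives the label, the pool and the percent of mitochondrial counts of each cell. Labels were the authors' own, made by clustering after Seurat and sctransform. The authors had removed barcodes by their genes, UMIs and mitochondrial share, and 2 subgroups of poor counts. No doublets were called here. Counts were summed over the cells of a label and period or pool, and divided by the summed UMIs (CPM). Ratios had 1 UMI added to each sum and were computed for genes with at least 50 UMIs. This UMI is worth more CPM in the group of fewer UMIs, so ratios of genes with few UMIs were drawn toward that group. A gene was listed from 4-fold (endothelial against other labels) or 2-fold (between periods and between regions). Intervals of 95% were exact Poisson, Clopper-Pearson or conditional exact intervals. PCR and pooling error are not covered, and a count of 0 allows 3 counts. Cells were thinned to 2000 UMIs where shares were compared, and 143 of 157 endothelial cells were deep enough. The ratios were tested on simulated data before use.

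Genes were named by a fixed rule: the 4 markers, the 10 highest endothelial ratios of each period (at least 50 endothelial UMIs), the 10 highest stage ratios in each direction (at least 100 UMIs, all prenatal stages on 1 side of all postnatal stages), the 10 largest differences of stage ratio from other labels in each direction (at least 100 UMIs), the 5 highest region ratios in each direction (same sign at E15 and E19), and members of 29 gene lists (286 genes, 283 in the files). Cp, Slc45a3, Pard6g and Rbp7 lay outside this rule and were named after their values were seen. The members and lists were chosen with earlier results of these data known. Gene positions are those of GENCODE M21 (GRCm38), and promoters those of RefSeq (GRCm38.p6), with Pecam1 and Cdh5 not matched. The work was done with pandas 2.3.3, SciPy 1.17.1, NumPy 2.4.6 and matplotlib 3.10.9 under Python 3.11.15. Alternatives to each setting are given in the closing section.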

Additional observations from a re-analysis of the deposited data

How the results depend on the processing

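Each region and stage was 1 pool, and after birth the 42 endothelial cells held only 178265 UMIs. Counts of genes past a fold were thus less certain there. The 1 UMI added to each sum also raised the postnatal side most where genes with few UMIs were compared. No value could be given without 1 replicate, and no paired analysis was possible because no pool had a replicate. Of 202 values for counts and shares under another setting 154 stayed within 1.5 times the count or within the interval and 48 moved. Of 1114 values for the genes named by rank 139 moved and 10 changed sign. Outside these, the stage ratios of the list members Flt4 (0.42) and Nr2f2 (0.01) changed sign without lymphatic-positive cells, and that of Aplnr (-0.13) within the esophagus. Those of Col18a1, Ecscr, Lama4 and Ramp2 also turned toward the prenatal side without lymphatic-positive cells. Such cells held 50 of 59, 46 of 66, 36 of 54 and 76 of 145 postnatal UMIs of these 4 genes. The cause was not tested, except that settings with fewer cells or a higher minimum compared fewer genes. The settings with interval, with at least 10 UMIs, without lymphatic-positive or hemoglobin-rich cells, within 1 region and with levels in lymphatic-positive cells of 2 UMIs were chosen after seeing the data. So was a setting with equal CPM added to both groups, whose values are among those counted above.

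Genes at least 4-fold higher in endothelial cells after birth numbered 1580, but 500 by the interval, 694 with at least 10 endothelial UMIs, 880 after centring on the median gene, 2961 with a minimum of 20 and 5902 with a minimum of 1 UMI. Before birth 525 became 2427 with a minimum of 1 UMI. The 646 genes higher before birth became 92 by the interval, 1042 with 1 UMI, 414 for E19 against pup, 395 without the GE-SCJ, 263 within the GE-SCJ and 269 within the esophagus. The 693 genes higher after birth became 209, 5811, 360, 449, 138 and 199 in the same order, and 1509 with a minimum of 20 UMIs. Genes with a stage ratio further toward the prenatal side than in other labels (356) numbered 126 within the GE-SCJ, 200 within the esophagus, 755 after centring, 776 with 1 UMI and 538 with 20. Those further toward the postnatal side (1374) numbered 265, 378, 740, 6934 and 2621 in the same order, 716 for E19 against pup and 818 from the mean of each cell's CPM. Centring on the median gene thus moved the split from 356 against 1374 to 755 against 740. Genes higher in esophagus (46) numbered 18 by the interval, 1625 with 1 UMI, 171 with 20 UMIs and 25 without mixed-content cells, and those higher in stomach (73) numbered 16, 1427, 312 and 40. The share of lymphatic-positive cells (13.4%) was 8.28% when 2 UMIs of each gene were asked, and that before birth (10.4%) was 5.22%, or 5.41% after thinning. The share of proliferating cells after thinning was 14.0% for all cells (28.7%), 18.0% before birth (37.4%), 0% after birth (4.76%), 23.9% at E15, 13.8% at E19 and 0% in pups. Signs changed for Hbb-bt, whose stage ratio was -0.85 without esophageal cells, -0.10 without hemoglobin-rich cells and -0.10 within the GE-SCJ, and whose difference from other labels was -2.40, -1.64 and -1.20. Within the esophagus the difference from other labels changed sign for Clps (-0.54), Hpgd (-0.62) and Pgc (-2.12), and for Flt4 (1.45).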

Other observations

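The ligands of the endothelial receptors were read in the other labels. Vegfa, the ligand of KDR and FLT1, was at 27.5 CPM in endothelial cells, 88.8 CPM in Stromal, 84.2 CPM in Columnar Epithelial and 67.8 CPM in Neural cells. Vegfc, the lymphatic growth factor, was at 17.4 CPM in endothelial cells and slightly higher in Stromal cells, and Vegfd, its relative, at 1.12 CPM there and at 48.6 CPM in Stromal cells. Angpt1, the activating ligand of TIE2, was at 0.561 CPM in endothelial and 38.5 CPM in Stromal cells. Pgf, a further ligand of FLT1, was highest outside the endothelium in Stromal-2 cells, with 36.5 CPM. Cxcl12 was at 97.1 CPM over all endothelial cells, at 188 CPM in Stromal and at 94.8 CPM in Smooth Muscle cells. All these levels pool the stages, whose mix differed by label, with 3085 of 3442 Stromal and 115 of 157 endothelial cells from before birth. The order of the labels within 1 period was not read.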
